A study of Homo sapiens with 24 samples.

Results

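The AP-1 factors are a family of basic leucine zipper (bZIP) transcription factors, and 9 of their genes were followed here: the Fos genes FOS, FOSB, FOSL1 and FOSL2, the Jun genes JUN, JUNB and JUND, and the related ATF3 and BATF3. The members were chosen by symbol from a table of 58825 genes, and 9 of 9 were found. The cells were SK-HEP-1, a human cell line established from a tumour of the liver, carrying CRISPR interference (CRISPRi), in which an inactive Cas9 fused to a repressor is led to a promoter by a guide RNA. There were 6 lines, each with a single guide: NTC1 and NTC2 carried non-targeting control guides, and sg2, sg4, sg5 and sg6 carried guides against PURPL, a long noncoding RNA induced by p53. All 6 lines therefore share the CRISPRi machinery, and each was treated for 6 h with 10 µM Nutlin-3a, which frees p53 from its inhibitor MDM2, or with the vehicle DMSO. Each of the 12 combinations of line and treatment has 2 harvests, numbered 1 and 3 and labelled biological replicates, which makes 24 libraries of polyadenylated RNA.

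Fos proteins do not pair with themselves and bind DNA as dimers with a Jun protein, whereas Jun proteins also pair with each other. Such dimers recognise the AP-1 site, and dimers with ATF or CREB proteins prefer the related cyclic AMP response element (CRE). FOS, FOSB and JUNB are immediate early genes, whose transcripts appear within minutes of a mitogen or stress signal through MAP kinases and decay soon after. FOSL1 and FOSL2 encode the longer-lived Fra-1 and Fra-2 proteins, which are often abundant in migratory or mesenchymal tumour cells. ATF3 is a stress-inducible factor and a known transcriptional target of p53, and BATF3 is a small bZIP partner of Jun proteins best known from dendritic cells.

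Promoter sequences were available for 7 of the 9 genes (RefSeq, GRCh38.p14, 8 windows of 300 bases from 250 before to 50 after a start). These were searched on both strands for the AP-1 site (TGACTCA or TGAGTCA), the CRE (TGACGTCA), the variant known from the proximal JUN promoter (TGACATCA), the TATA motif (TATAAA), the CArG box bound by serum response factor and the p53 consensus decamer. The stretches below are shown because they place ATF3 and JUN, and the other members in turn, beside each other by the element that their promoters hold. Each is 30 bases long, reads 5′ to 3′ on the gene's own strand and has the matched letters in capitals. Starts here are those of the RefSeq table. The GENCODE annotation used here for gene positions places the start of JUN, FOS and FOSL2 further upstream, so their 3 stretches lie inside the annotated gene, in JUN within its exon.
ATF3 upstream start, chr1:212565273-212565302, plus strand: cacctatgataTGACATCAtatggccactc
JUN, chr1:58784096-58784125, minus strand: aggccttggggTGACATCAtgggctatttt
JUND, chr19:18281804-18281833, minus strand: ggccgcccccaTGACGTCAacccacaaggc
FOSL2, chr2:28392851-28392880, plus strand: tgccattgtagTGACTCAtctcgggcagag
FOSB, chr19:45467954-45467983, plus strand: gggtcccgggcaTATAAAtacaggctggcg
FOS, chr14:75278783-75278812, plus strand: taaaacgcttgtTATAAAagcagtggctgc
JUNB, chr19:12791443-12791472, plus strand: tgactagcgcggTATAAAggcgtgtggctc

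JUN and the upstream start of ATF3 share the 8 letters TGACATCA, which begin 67 and 123 bases before the RefSeq start and occur in 2.61% of the 35116 promoter windows of the reference table. The CRE letters of JUND begin 200 bases before its start and occur in 1.85% of windows. The AP-1 letters of FOSL2 begin 4 bases after its start and occur in 4.95% of windows. The TATA letters lie 30 to 33 bases before the RefSeq start in FOSB, JUNB and FOS. TATA letters occur in 11.5% of all windows, and the second ATF3 window also holds them, 230 bases before its start. The CArG box letters (1.29% of windows) and the p53 decamer (6.63% of windows) were in none of the 8 windows, which says only that these letters are not there. The count table is per gene, so the ATF3 values below cover both starts together.

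In the gene annotation on hg38, ATF3 (ENSG00000162772.17, chr1:212565334-212620777, plus strand) and BATF3 (ENSG00000123685.9, chr1:212686418-212699985, minus strand) are neighbours, 65640 bases apart. JUN (ENSG00000177606.6, chr1:58780788-58784327, minus strand), JUNB (ENSG00000171223.6, chr19:12791496-12793315, plus strand) and JUND (ENSG00000130522.5, chr19:18279760-18281622, minus strand) each consist of 1 exon. The Fos genes lie apart: FOS (ENSG00000170345.10) at chr14:75278774-75282230, FOSB (ENSG00000125740.14) at chr19:45467995-45475179 and FOSL2 (ENSG00000075426.12) at chr2:28392448-28417312 on the plus strand. FOSL1 (ENSG00000175592.8) is at chr11:65892049-65900573 on the minus strand. JUNB shares 259 exon bases with HOOK2 on the opposite strand, whose median was 0.532 CPM. No source used here says whether strand entered the counting, so the low JUNB values are uncertain. FOSB and FOSL2 overlap other genes (ERCC1, FLJ31356 and AC104695.3) but share 0 exon bases with them.

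Library totals lay between 66.4 M and 92.1 M estimated counts (M, mega; median 74.2 M). Levels are in CPM, the usual depth-scaled count, computed here with TMM-scaled library totals. A library of sg2 with Nutlin-3a, harvest 1, stood apart, with a slope of log2 level on transcript GC content of 1.53 per 10 points of percent. The other 23 had slopes from -0.191 to 0.356. This library, named divergent here, was left out of the models. PURPL had 7.53 to 10.2 CPM in the NTC lines and 0.276 to 0.868 CPM in the guide lines in DMSO, and 29.7 to 38.0 CPM against 0.750 to 2.92 CPM with Nutlin-3a. The 10 p53 targets examined as a check all rose with Nutlin-3a in the NTC lines, among them SESN1 (log2 fold change 2.73), CDKN1A (3.55) and MDM2 (3.18). The labels class the cells as endothelial, and of 10 endothelial markers 2 passed the filter on low counts, ENG (20.4 to 51.8 CPM outside the divergent library) and EGFL7 (0.305 to 1.60 CPM). The other 8 did not: there PECAM1 reached at most 0.0277 CPM and CDH5 0.0593 CPM, and ERG was at 0 in all libraries. The mesenchymal marker VIM lay between 3564 and 4920 CPM with the divergent library included. The 7 mesenchymal markers together had 3626 to 4694 CPM outside that library and 5151 CPM in it. VIM made up most of these sums, so they say little about the other mesenchymal markers. The 5 epithelial markers, of which 4 passed the filter, together had 1370 to 2648 CPM outside it. This sum does not show which of them carry it. In such bulk RNA, fewer cells of a type and less RNA per cell cannot be told apart.

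The 9 genes spanned a wide range of levels, and the order hardly changed between libraries. Per kilobase of exon, FOSL1 stood first in each of the 23 libraries, followed by JUN and then FOSL2. FOSL1 lay between 53.9 and 85.2 CPM per kb, JUN between 25.2 and 33.5, and FOSL2 between 16.4 and 22.1, so these 3 ranges did not overlap. JUND (3.43 to 7.84 CPM per kb) and ATF3 (2.26 to 12.6) shared ranks 4 and 5 and exchanged places between libraries, and BATF3 (0.703 to 1.71) was always sixth. FOS (0.142 to 0.378), JUNB (0.0780 to 0.293) and FOSB (0.0496 to 0.194) overlapped at the bottom. Within the Fos genes FOSL1 held a median of 77.3% of the summed level per kb (72.5% to 82.6%) and FOSL2 22.3%, whereas FOS held 0.240% and FOSB 0.120%. Within the Jun genes JUN held 83.9% (78.0% to 89.5%), JUND 15.4% and JUNB 0.383%. The JUND share was 10.0% to 16.8% in DMSO and 15.3% to 21.8% with Nutlin-3a.

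**Figure D1:**
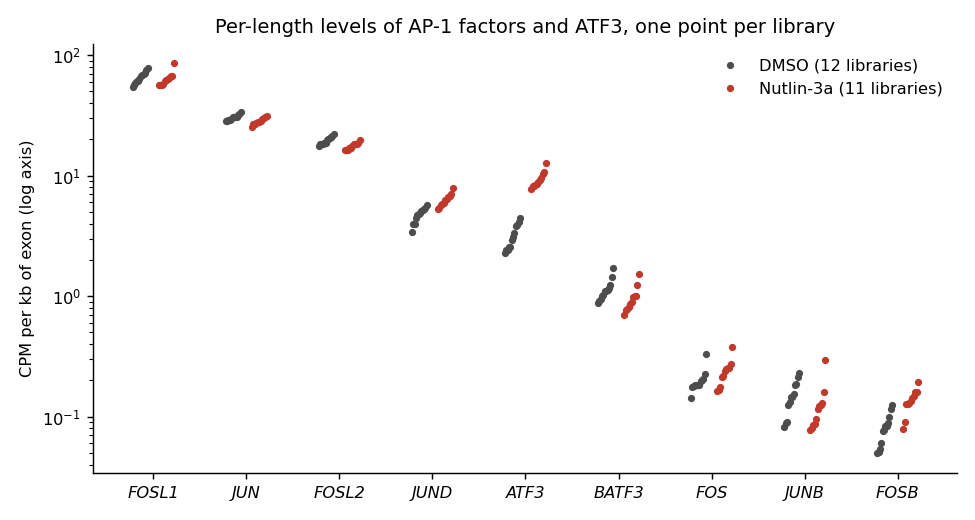
Level of each gene in CPM per kilobase of exon (log axis), with 1 point per library, 12 with DMSO (grey) and 11 with Nutlin-3a (red), the divergent library left out. FOSL1, JUN and FOSL2 form 3 separate bands at the top, and ATF3 is the gene whose red and grey points separate.

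The first question was how p53 activation by Nutlin-3a changes these genes where PURPL is not repressed. Among the NTC libraries 3 of the 9 rose (ATF3, FOSB and JUND), 0 fell and 6 did not pass the test. Over all 16237 genes tested 25.4% passed, 9.14% upward and 16.2% downward. The median log2 fold change of the 9 was -0.01, against -0.06 over all genes. These calls come from edgeR's quasi-likelihood test at an adjusted p under 0.05, and the p-values reflect how much 2 harvests of 1 line vary. In the 4 PURPL guide lines the same 3 rose and FOSL2 fell, while 39.6% of all genes passed, 16.3% upward and 23.2% downward. Their median was -0.01, against -0.0014 over all genes.

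ATF3, which encodes a stress-induced bZIP factor that can repress or activate with its Jun partners, had the clearest change. In NTC1 it stood at 15.8 and 10.4 CPM in harvests 1 and 3 with DMSO, and at 37.4 and 33.9 CPM with Nutlin-3a. In NTC2 the values were 16.7 and 11.8 CPM, then 41.3 and 35.8 CPM. All 4 Nutlin-3a values lay above all 4 DMSO values. The log2 fold change in the NTC lines was 1.44 (SE 0.22, 2.72-fold, edgeR adjusted p = 1.0e-04), from 13.7 ± 3.07 to 37.1 ± 3.12 CPM (SD, n = 4 libraries each). In the guide lines ATF3 had 18.1 and 10.4 CPM in sg2, 13.4 and 9.76 in sg4, 15.4 and 9.67 in sg5, and 9.14 and 12.5 in sg6 with DMSO. With Nutlin-3a it had 33.2 CPM in harvest 3 of sg2, 42.9 and 33.4 in sg4, 51.1 and 31.2 in sg5, and 34.6 and 38.9 in sg6. Again every Nutlin-3a library lay above every DMSO library. The log2 fold change there was 1.60 (SE 0.16, 3.04-fold, edgeR adjusted p = 5.3e-07).

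ATF3 passed in each of the 6 lines taken alone, with log2 fold changes from 1.22 in sg2 to 1.77 in sg6. The sg2 value sets harvest 3 with Nutlin-3a (33.2 CPM) against harvests 1 and 3 with DMSO (18.1 and 10.4 CPM). It is therefore not balanced by harvest, unlike the values of the other lines. The share of all genes that passed was 17.1% in NTC1, 15.6% in NTC2, 8.78% in sg2, 15% in sg4, 18.5% in sg5 and 16.8% in sg6. An exact sign permutation over the 6 line responses gave a two-sided p of 0.03125, the smallest that 64 sign patterns allow. Ordered by mean level, the 6 DMSO groups came first, from 10.8 CPM in sg6 to 14.3 CPM in sg2. The 6 Nutlin-3a groups followed, from 33.2 CPM in sg2 (harvest 3 alone) to 41.1 CPM in sg5. Within DMSO the harvest ranges of all 6 lines overlapped. Harvest 1 was higher than harvest 3 in 5 of 6 lines with DMSO (median ratio 1.47, range 0.734 to 1.75) and in 4 of 5 lines with Nutlin-3a (median ratio 1.15). Sg6 was the exception in both. In the divergent library ATF3 stood at 39.0 CPM, within the range of the other Nutlin-3a libraries, and with all 24 libraries the log2 fold changes were 1.48 in the NTC lines and 1.64 in the guide lines (edgeR adjusted p = 6.9e-04 and 3.1e-06).

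The genes whose log2 CPM followed ATF3 most closely over the 23 libraries were DDIT4, an inhibitor of mTOR signalling (Pearson r 0.977), KLHL12, an adaptor of a ubiquitin ligase (0.974), and XPC, a DNA damage sensor of nucleotide excision repair (0.974). These coefficients describe libraries that share the 2 treatments, and each includes the step between DMSO and Nutlin-3a.

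**Figure D2:**
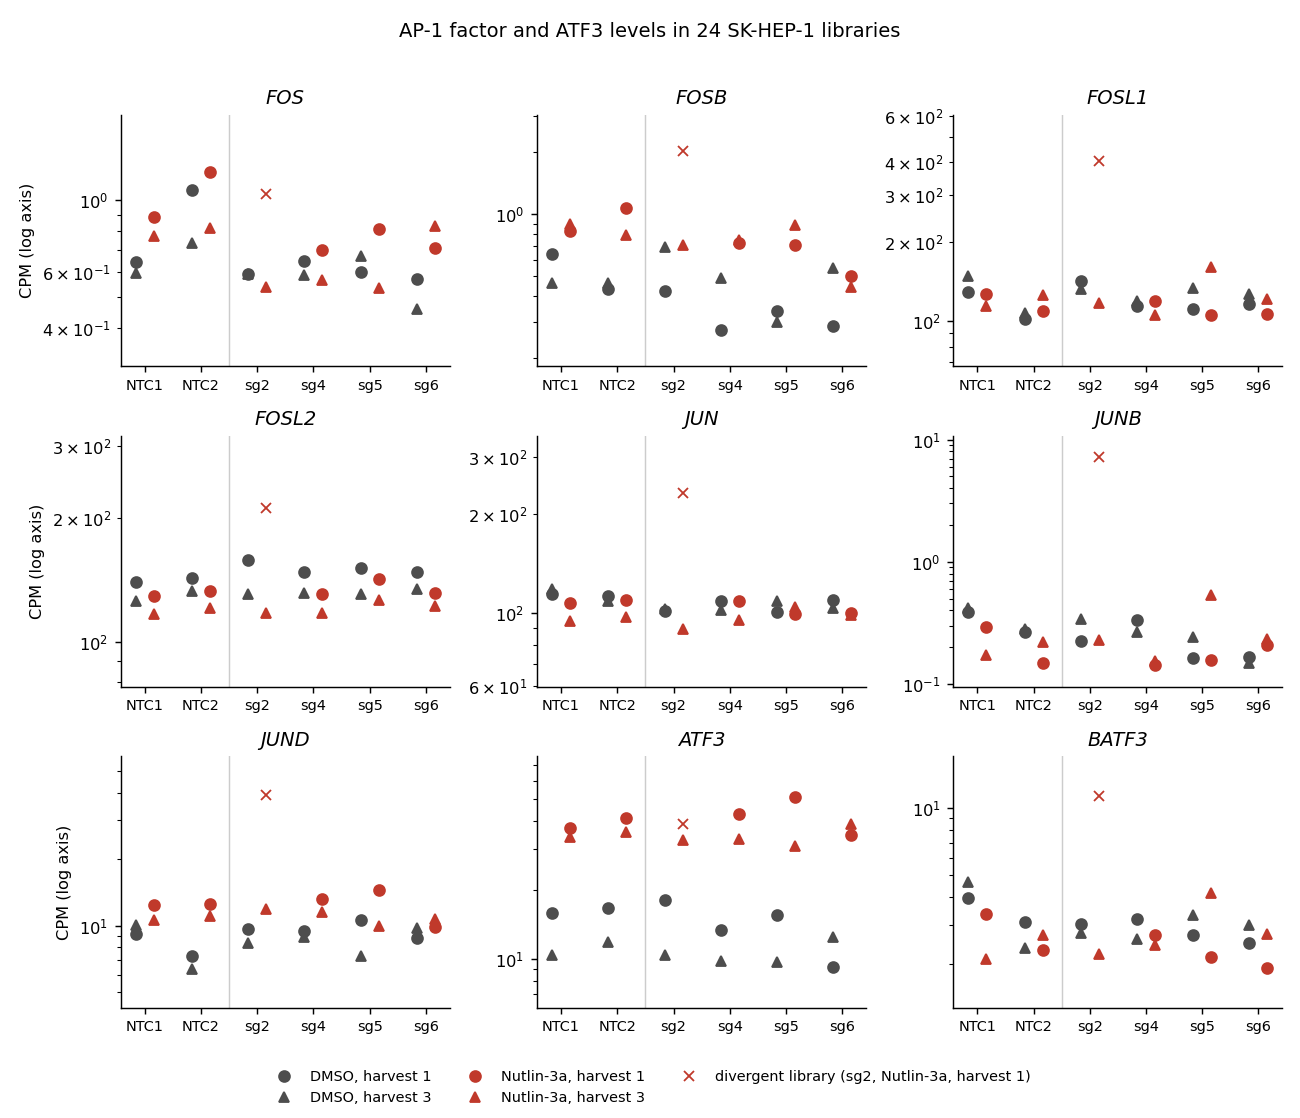
CPM (log axis) of the 9 genes in all 24 libraries by line, with DMSO in grey, Nutlin-3a in red, circles for harvest 1, triangles for harvest 3 and a cross for the divergent library. The ATF3 points with Nutlin-3a lie above all those with DMSO in every line, and the cross stands above all other points for FOSB, FOSL1, FOSL2, JUN, JUNB, JUND and BATF3.

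Among the Fos genes only FOSB passed in both sets of lines, at a low level. FOSB is an immediate early gene with the TATA letters shown above. In NTC1 it had 0.640 and 0.462 CPM with DMSO and 0.830 and 0.895 CPM with Nutlin-3a. In NTC2 it had 0.434 and 0.466 CPM, then 1.08 and 0.790 CPM. The 2 treatments did not overlap in these lines, although each value rests on only 39 to 73 counts. The log2 fold change was 0.85 (SE 0.22, 1.80-fold, edgeR adjusted p = 0.0096) in the NTC lines. Without harvest 1 of NTC2 with Nutlin-3a, the highest of these libraries, it was 0.73 and did not pass (edgeR adjusted p = 0.0502).

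FOSB in the guide lines with DMSO had 0.426 and 0.694 CPM in sg2, 0.275 and 0.491 in sg4, 0.339 and 0.299 in sg5, and 0.285 and 0.549 in sg6. With Nutlin-3a it had 0.710 CPM in sg2, 0.723 and 0.746 in sg4, 0.713 and 0.885 in sg5, and 0.501 and 0.442 in sg6. The groups overlapped, because both Nutlin-3a values of sg6 lay below the highest DMSO values. The log2 fold change was 0.70 (SE 0.18, 1.62-fold, edgeR adjusted p = 0.0046). Line by line FOSB passed in NTC2 (1.05) and sg5 (1.32). It was positive without passing in NTC1 (0.65), sg4 (0.95), sg2 (0.34) and sg6 (0.18), and the exact sign permutation over the 6 lines gave p = 0.03125. In the divergent library FOSB stood at 2.03 CPM, more than in any other library. With all 24 libraries the NTC value was 0.88 and did not pass (edgeR adjusted p = 0.0995), and the guide line value was 0.94 (adjusted p = 0.0053). The gene most like FOSB over the 23 libraries was BTG4 (Pearson r 0.872), followed by the noncoding AC069224.1 (0.808) and PINCR (0.804).

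FOS, the founding immediate early gene, was near the lower limit of the data, with 31 to 96 counts per library outside the divergent one. In the NTC lines with DMSO it had 0.640 and 0.594 CPM in NTC1 and 1.07 and 0.734 CPM in NTC2, and with Nutlin-3a 0.885 and 0.775 CPM and then 1.22 and 0.815 CPM. The 2 treatments overlapped, and NTC2 in harvest 1 was the highest of each. The divergent library had 1.04 CPM. On the log2 scale the fold change was 0.30 (95% interval -0.08 to 0.68, edgeR adjusted p = 0.252) in the NTC lines and 0.14 (-0.16 to 0.45, adjusted p = 0.463) in the guide lines. With all 24 libraries these were 0.33 and 0.29, and neither passed (edgeR adjusted p = 0.47 and 0.16).

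FOSL1, which encodes Fra-1, was the most abundant member per kilobase of exon and gave narrow intervals around no change. In the NTC lines it had 128.7 and 148.3 CPM in NTC1 and 101.7 and 107.5 CPM in NTC2 with DMSO, against 126.4 and 114.7 CPM and then 109.5 and 126.2 CPM with Nutlin-3a. Both Nutlin-3a values of NTC1 were below its DMSO values and both of NTC2 above, and the groups overlapped. Its log2 fold change was -0.01 (95% interval -0.24 to 0.21) in the NTC lines and -0.06 (-0.23 to 0.11) in the guide lines, neither past the threshold (edgeR adjusted p = 0.942 and 0.586). The divergent library had 403.7 CPM, and with it the values were 0.0186 and 0.23 (edgeR adjusted p = 0.99 and 0.31). With the trend on GC content removed from each library the direction in the NTC lines turned: FOSL1 passed upward there (0.15, edgeR adjusted p = 0.037) and downward in the guide lines (-0.15, adjusted p = 0.0045).

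FOSL2, which encodes Fra-2 and has the AP-1 letters shown above just inside its RefSeq start, was slightly lower with Nutlin-3a in 6 of 6 lines. In the NTC lines it had 140.1 and 125.6 CPM in NTC1 and 143.2 and 133.2 CPM in NTC2 with DMSO, then 129.7 and 117.0 CPM and 133.5 and 121.4 CPM with Nutlin-3a. In the guide lines the lowest, median and highest values were 130.9, 141.3 and 158.1 CPM with DMSO (n = 8) and 117.5, 126.5 and 142.2 CPM with Nutlin-3a (n = 7). The groups overlapped in both sets of lines, and harvest 1 exceeded harvest 3 in 6 of 6 lines with DMSO and 5 of 5 with Nutlin-3a, by 1.08-fold to 1.21-fold. On the log2 scale the fold change was -0.17 (SE 0.06, edgeR adjusted p = 0.028) in the guide lines, where it passed, and -0.11 (95% interval -0.28 to 0.05, adjusted p = 0.331) in the NTC lines. The call was lost with all 24 libraries (-0.05, adjusted p = 0.72), with DESeq2 (-0.14, adjusted p = 0.068), with RLE scaling (-0.14, adjusted p = 0.075), with the filter at 1 CPM (-0.11, adjusted p = 0.157), with the GC trend removed (-0.21, adjusted p = 0.067) and in 8 of the fits that left out 1 library. These 8 left out harvest 1 of sg2, sg4, sg5 or sg6 with DMSO, or harvest 3 of any of them with Nutlin-3a. With a block for the harvest number FOSL2 passed in the guide lines (-0.15, edgeR adjusted p = 8.4e-04) and not in the NTC lines (-0.11, adjusted p = 0.0501). It also passed in the guide lines with no filter (-0.15, edgeR adjusted p = 0.039) and with all 24 libraries and the GC trend removed (-0.27, adjusted p = 0.027). The sg2 value (-0.30) sets harvest 3 with Nutlin-3a against both DMSO harvests. The exact sign permutation over the 6 lines gave p = 0.03125.

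Among the Jun genes only JUND passed. JUND is the Jun gene known for steady expression in resting cells, and its promoter holds the CRE shown above. In NTC1 it had 9.19 and 10.1 CPM with DMSO and 12.4 and 10.6 CPM with Nutlin-3a. In NTC2 it had 7.34 and 6.39 CPM, then 12.6 and 11.1 CPM. The treatments did not overlap in the NTC lines, and the DMSO libraries of NTC2 were the lowest of all 12 DMSO libraries together with harvest 3 of sg5 (7.34 CPM). Its log2 fold change was 0.52 (SE 0.13, 1.43-fold, edgeR adjusted p = 0.0067) in the NTC lines.

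In the guide lines JUND lay between 7.34 and 10.7 CPM with DMSO (median 9.19, n = 8) and between 9.87 and 14.6 CPM with Nutlin-3a (median 11.6, n = 7). These ranges overlapped at their edges. On the log2 scale the fold change was 0.36 (SE 0.10, 1.28-fold, edgeR adjusted p = 0.0075). Line by line it passed in NTC2 (0.78) and not in NTC1 (0.25), sg2 (0.39), sg4 (0.43), sg5 (0.45) and sg6 (0.15), and the exact sign permutation over the 6 positive values gave p = 0.03125. JUND has the most GC-rich transcripts of the 9 genes (69.7%), and its value moved with the handling of GC content. With the GC trend removed it was 0.83 in the NTC lines (edgeR adjusted p = 0.046) and 0.24 in the guide lines, where the call was lost (adjusted p = 0.41). The divergent library had 39.0 CPM. With all 24 libraries JUND did not pass in the NTC lines (0.55, edgeR adjusted p = 0.25) and passed in the guide lines (0.63, adjusted p = 0.016). With all 24 and the GC trend removed, an alternative chosen after seeing the data, it passed in neither (0.83 and 0.0144, edgeR adjusted p = 0.24 and 0.98). Over the 23 libraries the closest genes were NDUFA12, a subunit of respiratory complex I (Pearson r 0.885), ICA1 (0.882) and C12orf76 (0.874).

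**Figure D3:**
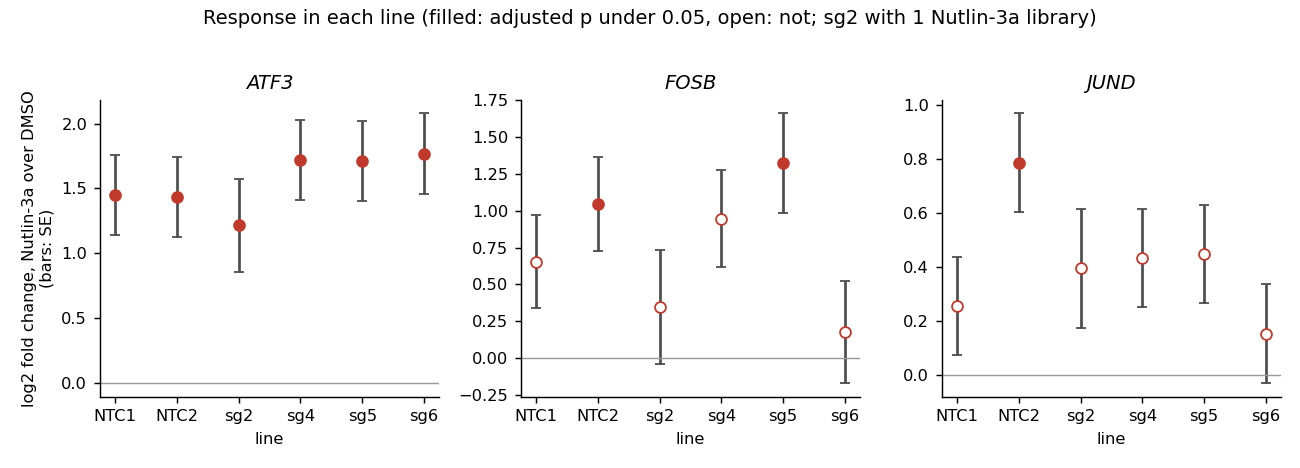
Log2 fold change of Nutlin-3a over DMSO for ATF3, FOSB and JUND in each of the 6 lines, with bars of 1 SE from the edgeR model and filled points where the adjusted p was under 0.05. ATF3 is filled in all 6 lines, FOSB in NTC2 and sg5, and JUND in NTC2. For sg2 the only Nutlin-3a library is harvest 3.

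JUN, the main Jun gene of these cells and the partner of Fra-1 and Fra-2 in AP-1 dimers, was slightly lower with Nutlin-3a in 6 of 6 lines without passing in either set. In NTC1 it had 114.6 and 118.6 CPM with DMSO and 106.9 and 94.2 CPM with Nutlin-3a. In NTC2 it had 112.9 and 108.4 CPM, then 109.6 and 97.3 CPM. NTC1 did not overlap between treatments and NTC2 did. Its log2 fold change was -0.16 (95% interval -0.28 to -0.03, edgeR adjusted p = 0.064) in the NTC lines and -0.09 (-0.19 to -5.1e-04, adjusted p = 0.103) in the guide lines. The exact sign permutation over the 6 lines gave p = 0.03125, which ATF3, FOSB, FOSL2, JUND and BATF3 also reached. The line values of JUN were only -0.04 in sg4 and -0.04 in sg5, and whether their signs hold under other scalings was not tested. In the NTC lines JUN passed when harvest 1 of NTC1 or of NTC2 with Nutlin-3a was left out (-0.20 in each, edgeR adjusted p = 0.034 and 0.041). In the guide lines it passed without harvest 1 of sg4 with Nutlin-3a (-0.12, adjusted p = 0.048). The NTC value was -0.096 with RLE scaling and with DESeq2, and -0.085 with the filter at 1 CPM. It was -0.03 with the GC trend removed. The guide line values in these fits were -0.06, -0.06, -0.03 and -0.14, and JUN passed in none of them. With all 24 libraries and the GC trend removed it passed in the guide lines (-0.14, edgeR adjusted p = 0.049). The divergent library had 232.2 CPM, and with it JUN was at -0.12 in the NTC lines and 0.12 in the guide lines (edgeR adjusted p = 0.84 and 0.47).

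JUNB, an immediate early Jun gene that can restrain JUN, was the scarcest Jun member, at 10 to 38 counts per library outside the divergent one. In the NTC lines it had 0.387 and 0.418 CPM in NTC1 and 0.267 and 0.280 CPM in NTC2 with DMSO, then 0.290 and 0.174 CPM and 0.147 and 0.222 CPM with Nutlin-3a. NTC1 and NTC2 each had lower values with Nutlin-3a, but the pooled groups overlapped. On the log2 scale the fold change was -0.67 (95% interval -1.33 to -0.01, edgeR adjusted p = 0.134) in the NTC lines and -0.01 (-0.54 to 0.51, adjusted p = 0.975) in the guide lines. With the divergent library (7.20 CPM) JUNB was at -0.64 and 0.99, neither past the threshold (edgeR adjusted p = 0.74 and 0.13).

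BATF3 had 3.93 and 4.64 CPM in NTC1 and 3.07 and 2.36 CPM in NTC2 with DMSO, then 3.35 and 2.10 CPM and 2.31 and 2.71 CPM with Nutlin-3a. Both DMSO libraries of NTC1 were higher than the other 6, and the groups overlapped. Its log2 fold change was -0.39 (95% interval -0.81 to 0.03, edgeR adjusted p = 0.174) in the NTC lines and -0.18 (-0.50 to 0.14, adjusted p = 0.363) in the guide lines. Its neighbour ATF3 rose in the same libraries. BATF3 was lower on average in 6 of 6 lines by the mean of log2 values over harvests (exact sign permutation p = 0.03125), although the fitted value of sg5 was 0.07. With the divergent library (11.4 CPM) BATF3 was at -0.35 in the NTC lines and 0.23 in the guide lines (edgeR adjusted p = 0.71 and 0.50).

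**Figure D4:**
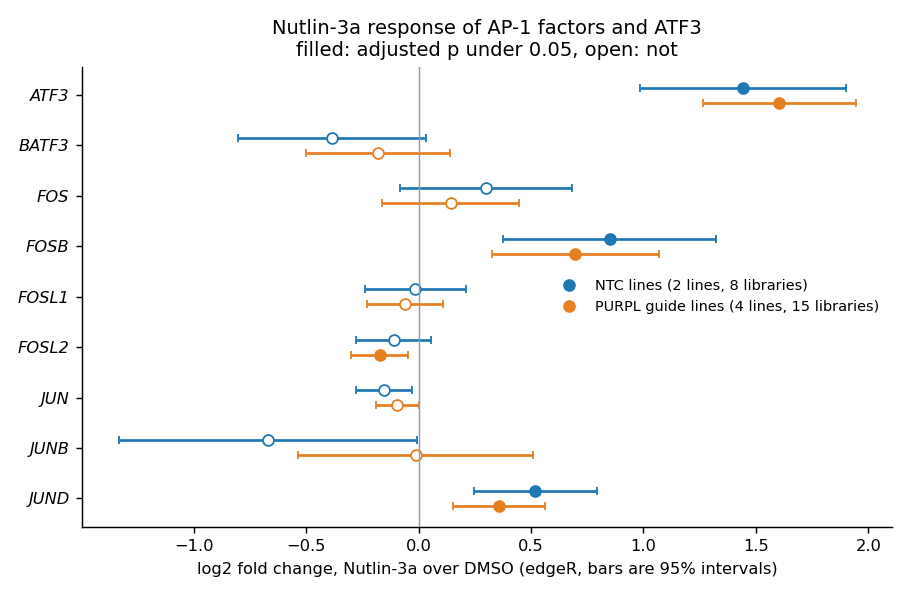
Log2 fold change of Nutlin-3a over DMSO for the 9 genes in the NTC lines (blue, 8 libraries) and the PURPL guide lines (orange, 15 libraries), with 95% intervals from edgeR and filled points where the adjusted p was under 0.05. ATF3, FOSB and JUND are filled and above 0 in both sets, and FOSL2 is filled and below 0 in the guide lines.

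The divergent library touched the members unequally. Against the other harvest of its group, JUNB was 31.6-fold higher (7.20 against 0.228 CPM) and BATF3 5.15-fold higher (11.4 against 2.21 CPM). The JUNB ratio sets 624 counts against only 17, so its size is imprecise. FOSL1 was 3.44-fold, JUND 3.28-fold, FOSB 2.86-fold, JUN 2.60-fold, FOS 1.94-fold and FOSL2 1.80-fold higher. ATF3, whose transcripts have the lowest GC content of the 9 (50.9%), was 1.18-fold higher. BATF3 had the next lowest GC content (55.4%), FOS had 60.1%, JUNB 64.9% and JUND the highest (69.7%). The part of GC content in these ratios was not tested. With this library included, 4 members passed in sg2 alone (FOSB, JUNB, JUND and ATF3, with JUNB at a log2 fold change of 3.71), against ATF3 alone without it. Of all genes 29.2% passed in sg2 with it, against 8.78%. Cell type markers moved too. The summed level of 5 epithelial markers was 9091 CPM there against 1370 to 2648 CPM in the other libraries. That of 10 endothelial markers was 210.8 against 21.0 to 53.8 CPM, with ERG at 0. The leukocyte sum was 79.4 against 16.2 to 34.2 CPM and the hepatocyte sum 5.41 against 1.74 to 3.78 CPM. The sums of these unrelated lists thus rose together, while that of the nuclear and mitochondrial RNAs (7933 CPM) lay within the range of the other libraries. The part of these shifts in the member values was not tested. Among the other libraries, harvest 3 of sg5 with Nutlin-3a had the highest GC slope (0.356) and the highest FOSL1 (160.7 CPM) and JUNB (0.534 CPM). Harvest 3 of NTC1 with DMSO had the next highest slope (0.320). Among the NTC libraries with DMSO it held the highest FOSL1, JUN, JUNB, JUND and BATF3 and the lowest FOS, FOSL2 and ATF3. The part of the slope in these values was not tested.

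**Figure D5:**
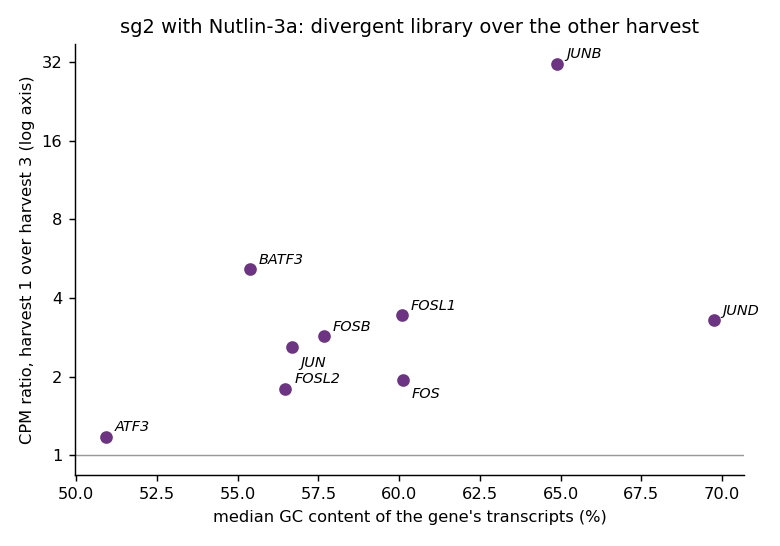
Ratio of CPM in the divergent library over harvest 3 of sg2 with Nutlin-3a (log axis) against the median GC content of each gene's transcripts in percent, 1 point per gene. ATF3 lies near 1, JUNB at 31.6, and the other 7 genes between 1.80 and 5.15.

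The second question was whether the guides against PURPL changed the AP-1 genes. Lines are the replicates here, 4 guide lines against 2 NTC lines, so the p-values measure the spread between lines and the smallest exact p is 0.0667. In DMSO 0 of the 9 members passed, as 0.00601% of all 16648 genes did (PURPL alone). At an unadjusted p under 0.05 edgeR had 528 genes, and DESeq2 called 11 genes after adjustment, none of them a member. The median log2 difference of the 9 was -0.13, against -0.01 over all genes.

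The intervals for the abundant members in DMSO were narrow. The log2 difference of guide lines from NTC lines was 0.03 for FOSL1 (95% interval -0.24 to 0.30), 0.08 for FOSL2 (-0.06 to 0.21), -0.12 for JUN (-0.25 to 0.02), -0.13 for ATF3 (-0.41 to 0.15) and 0.15 for JUND (-0.15 to 0.46). They were wide for the scarce ones. FOS had -0.37 (-0.82 to 0.09), FOSB -0.24 (-0.79 to 0.31), BATF3 -0.28 (-0.69 to 0.12) and JUNB -0.50 (-1.19 to 0.19). At the lower bounds these 4 genes would be 1.76-fold, 1.72-fold, 1.61-fold and 2.29-fold lower in the guide lines. With NTC2 left out, which leaves 1 control line, JUN (-0.15, edgeR adjusted p = 0.025) and BATF3 (-0.57, adjusted p = 0.0010) passed, while the number of genes passing went from 1 to 6357.

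With Nutlin-3a 0 of the 9 passed, as 0.00596% of all 16768 genes did. At an unadjusted p under 0.05 edgeR had 799 genes, and DESeq2 called 19, none of them a member. FOS showed the largest separation: 0.534 to 0.828 CPM in the guide lines (median 0.697, n = 7) and 0.775 to 1.22 CPM in the NTC lines (n = 4), ranges that overlapped. Its log2 difference was -0.49 (95% interval -0.88 to -0.10, unadjusted p = 0.0205 by edgeR, adjusted p = 0.828), and the exact permutation p was 0.0667. FOSB had -0.41 (-0.88 to 0.05). The other differences lay between -0.07 for JUN and 0.15 for JUNB, and ATF3 had -7.8e-04 (-0.17 to 0.17). With the divergent library JUNB had 2.47 and BATF3 0.52, neither past the threshold (edgeR adjusted p = 0.68 each).

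The third question was whether the Nutlin-3a response itself differed between the guide lines and the NTC lines. The test of that difference passed for 0 of 17106 genes (0% called) and so for 0 of the 9. At an unadjusted p under 0.05 edgeR had 994 genes, and DESeq2 called 5 genes, none of them a member. For ATF3 the difference was 0.12 on the log2 scale (95% interval -0.19 to 0.43, edgeR adjusted p = 0.727), so a response up to 1.35-fold stronger or 1.14-fold weaker in the guide lines lies within the interval. FOSB had -0.16 (-0.88 to 0.55), JUND -0.18 (-0.54 to 0.17) and FOSL2 -0.09 (-0.26 to 0.08). JUNB had the largest value, 0.65, with the widest interval (-0.42 to 1.72). Without harvest 3, which leaves 1 library per line and treatment and no Nutlin-3a library of sg2, ATF3 passed (0.47, edgeR adjusted p = 9.7e-04). Then 2117 genes passed. Without harvest 1 the ATF3 value was -0.01.

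Genes around AP-1 were taken from lists and counted in the NTC lines against the 25.4% of all genes that passed. Of 32 kinases and ternary complex factors upstream of AP-1, 4 rose and 6 fell (median log2 fold change -0.15, against -0.06 over all genes). Those with the smallest p were MAP3K5, the stress kinase ASK1 (-0.82), MAP2K4, which activates JNK (0.45), and FBXW7, the ubiquitin ligase adaptor that targets JUN for degradation (0.60). Of 35 other bZIP factors 2 rose and 4 fell (median -0.10). CREB3L2, an endoplasmic reticulum-bound factor, rose by 0.76, while the repressor NFIL3 fell by 0.43 and CREBZF fell by 0.34. Among the guide lines 4 of the 32 kinases and factors rose and 13 fell, and 6 of the 35 bZIP factors rose and 8 fell, against 39.6% of all genes.

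The other immediate early genes went in both directions, with 12 of 36 up and 7 down in the NTC lines (median 0.13) and 15 up and 7 down in the guide lines (median 0.15). Over all genes tested 9.14% were called up and 16.2% down in the NTC lines, and 16.3% up and 23.2% down in the guide lines. BTG2, an antiproliferative p53 target, rose by 3.50 and the ERK phosphatase gene DUSP5 by 0.61, while MYC fell by 0.92. Of 33 textbook AP-1 target genes 6 rose and 1 fell (AREG) in the NTC lines (median 0.06, against -0.06 over all genes). In the guide lines 14 rose and 1 fell (AREG), with a median of 0.23 against -0.0014 over all genes. IL1B, an inflammatory cytokine, rose by 2.06 and the integrin ITGA2 by 0.88 in the NTC lines. The list of 8 nuclear and mitochondrial RNAs rose with the members that rose, 6 of 8 in the NTC lines, and its summed level went from 5005 to 5820 CPM with DMSO to 6868 to 9445 CPM with Nutlin-3a. Its part in the member values was not tested. In the guide comparisons 0 genes of these lists passed.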

How the data were processed

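Polyadenylated RNA of 24 SK-HEP-1 libraries was sequenced from stranded TruSeq mRNA preparations, per the labels' protocols. The authors deposited expected counts, which RSEM estimates gene by gene, and 5.6% to 7.16% of the values in a library are not whole. The submitters' processing notes name cutadapt, STAR, RSEM, DESeq2 and hg38, but no versions.

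Expected counts were rounded to whole numbers. The 45 second copies of pseudoautosomal genes (0.0222% of counts) were added to their X rows, and gene models came from GENCODE on hg38. Genes were kept with 10 counts at the median library size in at least 2 libraries and 15 in total, the rule of filterByExpr coded by hand. They were scaled with TMM and tested with edgeR 4.0.16 (R 4.3.3) robust quasi-likelihood tests, adjusted by Benjamini-Hochberg over all genes tested and called at 0.05. Nutlin-3a responses came from 1 model of 12 group means over 23 libraries (11 residual degrees of freedom), which assumes that sg2 with Nutlin-3a, with 1 library, varies like the other groups. Guide comparisons used sums of harvests per line, and the difference of responses used these sums with a term for each line. Two-sided exact permutation tests over lines were added for each member, and their p-values were not adjusted for the number of members.

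The divergent library was left out because an earlier account of the series had described its steep trend on GC content. The members, lists, tests and this choice were made with earlier results of these data known. The 9 members are always named, with up to 3 called genes of each list by smallest p in the NTC lines and the 3 genes most like each member called in both sets of lines (Pearson r of log2 CPM, prior count 2). A gene that this rule names is not reported here. Harvests of a group differed beyond counting noise in 30.2% to 70.7% of genes in 11 groups and 90.7% in sg2 with Nutlin-3a, which holds the divergent library, so none was a duplicate. Whole-count tests were checked on simulated counts. Alternatives were all 24 libraries, DESeq2 1.42.0, scaling by RLE, testing unfiltered genes or those at 1 CPM or more, a block for the harvest number, removal of each library's lowess trend on GC content (known for 99.7% of genes tested), and leaving out libraries, lines or harvests in turn. In the guide comparisons and the difference of responses, the block was fitted to single libraries instead of sums per line. Harvests of a line counted as replicates there. All 24 libraries with the GC trend removed was added after seeing the data. FOS, FOSB and JUNB rest on 10 to 96 counts per library outside the divergent one, so they carry the largest counting error.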

Additional observations from a re-analysis of the deposited data

Results flagged for a closer look

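Samples far from the rest of their group were looked for in 45 pairs of member and group by the gap to the nearest library over the group's range, and 12 pairs stood out. Chance alone marks about 1 in 20 groups, and groups with and without the divergent library overlap. The divergent library accounted for 7 of the 12: FOSB at 2.03 CPM (next 0.885), FOSL1 at 403.7 CPM (next 160.7), FOSL2 at 211.5 CPM (next 142.2), JUN at 232.2 CPM (next 108.8), JUNB at 7.20 CPM (next 0.534), JUND at 39.0 CPM (next 14.6) and BATF3 at 11.4 CPM (next 4.17). ATF3 and FOS were not among them.

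With that library left out, harvest 3 of sg5 with Nutlin-3a was the highest of the guide lines for FOSL1 (160.7 CPM, next 121.2), JUNB (0.534 CPM, next 0.235) and BATF3 (4.17 CPM, next 2.73). In the NTC lines with DMSO, harvest 1 of NTC1 was high for FOSB (0.640 CPM from 48 counts, next 0.466 CPM). In the guide lines with DMSO, harvest 3 of sg6 was low for FOS (0.460 CPM from 31 counts, next 0.570 CPM). No member's Nutlin-3a response was shown to differ between guide lines and NTC lines.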

How the results depend on the processing

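ATF3 passed in all 16 alternatives of the NTC lines and all 23 of the guide lines, and FOSB in 13 of 15 and 22 of 22, JUND in 14 of 16 and 21 of 23, and FOSL2 in the guide lines in 10 of 23. Of 734 member values under alternatives, 616 kept direction and side of the threshold, 19 lost a call, 10 gained one and 89 changed sign, 1 of the 89 with a call. The harvest numbers were not stated to mark a shared day, and deviations of same-numbered libraries correlated at -0.28 to 0.33 over 55 pairs of groups (median 0.05). With the block for the number 4558 genes passed in the NTC lines and 6719 in the guide lines, and JUN passed in the NTC lines (-0.16, edgeR adjusted p = 0.046). The filter at 1 CPM removed FOSB and JUNB, and in the guide comparisons FOS too.

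Counts moved as follows. With all 24 libraries 1344 genes passed in the NTC lines (685 up, 659 down) and 1 member, against 4122 and 3, 4 members passed in sg2, and 0 genes differed between guides with Nutlin-3a. With the filter at 1 CPM 2 members passed in the guide lines, and with the GC trend removed 2403 genes rose in the NTC lines. DESeq2 called 11, 19 and 5 genes in the guide comparisons (DMSO, Nutlin-3a, difference of responses) against 1, 1 and 0, no filter gave 2, 6 and 7, GC removal 2 in each treatment, and RLE factors 2 with Nutlin-3a. Leaving out a library, line or harvest gave 3121 to 4806 genes in the NTC lines (1117 to 2019 up, 1986 to 2787 down) and 5654 to 7145 in the guide lines. It gave 0 to 6357 genes and 0 to 2 members in DMSO, 1 to 3 genes with Nutlin-3a, and 0 to 2979 genes and 0 to 1 members for the difference. The 6357 genes, the 2 members in DMSO and the 2979 genes are without NTC2, which leaves 1 control line, and the 3 genes without sg5. Without harvest 3, 2117 genes and 1 member (ATF3) differed in response.

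Signs changed mostly for values near 0. For the Nutlin-3a response in the NTC lines FOSL1 was 0.0186 with all 24 libraries, 0.0447 with RLE factors and DESeq2, 0.0263 with no filter, 0.0559 with the 1 CPM filter, 0.15 with GC removal on 23 or 24 libraries, and -0.0668 to 0.0389 with a library left out. FOSL2 was 0.0078 and 0.0075 with GC removal on 23 and 24 libraries. In the guide lines with all 24 libraries FOSL1 was 0.23, JUN 0.12, JUNB 0.99 and BATF3 0.23, and with GC removal on all 24 FOS was -0.11 and JUNB 0.0794. JUNB was 0.017 with RLE factors, 0.0165 with DESeq2 and 0.0132 with no filter, FOSL1 was 0.0091 with the 1 CPM filter, and with a library left out FOSL1 was -0.13 to 0.0079 and JUNB -0.28 to 0.14.

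For guides in DMSO, leaving out a line or harvest gave FOSB -0.68 to 0.14, FOSL1 -0.16 to 0.25, JUND -0.0695 to 0.42 and BATF3 -0.57 to 0.0855. For guides with Nutlin-3a, all 24 libraries gave FOSL1 0.38, FOSL2 0.13, JUN 0.19, JUND 0.39, ATF3 0.0253 and BATF3 0.52. No filter gave JUND 0.0011 and ATF3 0.0025, the 1 CPM filter FOSL2 0.003, JUND 0.0061 and ATF3 0.0077, the block FOSL2 0.0206, JUND 0.0108 and ATF3 0.0337, and GC removal JUNB -0.0475. Leaving out a line or harvest gave FOSL1 -0.0982 to 0.0685, FOSL2 -0.0324 to 0.0304, JUN -0.0821 to 0.0155, JUNB -0.39 to 0.52, JUND -0.023 to 0.062, ATF3 -0.0504 to 0.12 and BATF3 -0.34 to 0.26.

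For the difference of responses, all 24 libraries gave FOSB 0.0587, FOSL1 0.20, FOSL2 0.0108 and JUND 0.0731, and GC removal JUN -0.11. Leaving out a line or harvest gave FOSB -0.45 to 0.25, FOSL1 -0.27 to 0.14, JUN -0.0194 to 0.11, JUND -0.45 to 0.0879, ATF3 -0.0102 to 0.47 and BATF3 -0.10 to 0.48. The cause of these changes was not tested. At 10 to 96 counts per library outside the divergent one, FOS, FOSB and JUNB are limited by counting error.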
